A study of Mus musculus with 31 samples.

Results

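The S100 genes encode small calcium-binding proteins, and 8 of the 24411 entries of the gene count table were examined: S100a8, S100a9, S100a4, S100a6, S100a10, S100a11, S100a13 and S100a1. They were taken by symbol, and all 8 had enough counts to be tested. The RNA-seq data covered 9 libraries of Ly6C-high monocytes of C57BL/6J mice in 3 groups of 3: blood of mice labelled healthy (healthy blood), blood of mice carrying subcutaneous Lewis lung carcinoma, LLC for short, a mouse line that grows as a graft in this strain (LLC blood), and the tumors themselves (LLC tumor). All 3 groups were sorted by the same gate, CD11b+ Ly6G- Ly6Chi MHC-II-. Age, sex and pooling of the mice are not given in the sources used here, nor whether a blood and a tumor library came from the same mouse. The p-values therefore measure the spread between these libraries.

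S100 proteins act mostly as dimers whose shape changes when calcium binds to their EF hands, so that they can grip a partner protein. Inside the cell these partners include annexins and the myosin of the cell cortex. S100A8 and S100A9 form calprotectin, a major cytosolic protein of neutrophils and of classical monocytes that binds zinc and manganese and, once released, is sensed by Toll-like receptor 4 and by the receptor RAGE. S100A8 and S100A9 are widely used as markers of myeloid cells that accumulate in tumor-bearing animals.

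All 8 genes lie on mouse chromosome 3 within 3054 kb of one another in the RefSeq annotation of GRCm38.p6, the assembly also called mm10, which the submitters' processing notes name. S100a8 (chr3:90669071-90670034) and S100a9 (chr3:90692630-90695721) are neighbours separated by 22.6 kb. S100a4 (chr3:90603770-90606045), S100a6 (chr3:90612894-90614414), S100a13 (chr3:90514233-90524581) and S100a1 (chr3:90511034-90514330) belong to the same group of genes, and S100a11 (chr3:93520496-93526288) and S100a10 (chr3:93555117-93564645) lie further along. S100a1 and S100a13 run in opposite directions and overlap by 98 bases, and whether the counting used strand is not given in the sources used here, so reads in that overlap cannot be assigned. The other 6 overlapped no other annotated gene, and all 72 counts of the 8 genes were whole numbers.

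RefSeq promoter sequences were matched for 7 of the 8 genes. Those of S100a8 and S100a9 are shown because these genes moved together from library to library, and that of S100a11 because it was the member that was called in every comparison. Each is the 250 bases before the annotated start of transcription in GRCm38.p6, written 5′ to 3′ on the gene's own strand, with matches to the motifs searched in capitals.
S100a8, plus strand, chr3:90668821-90669070: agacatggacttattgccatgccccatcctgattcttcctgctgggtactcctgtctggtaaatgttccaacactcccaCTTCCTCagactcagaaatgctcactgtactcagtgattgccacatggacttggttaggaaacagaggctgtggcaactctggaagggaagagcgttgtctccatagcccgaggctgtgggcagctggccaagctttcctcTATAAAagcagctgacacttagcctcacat
S100a9, minus strand, chr3:90695722-90695971: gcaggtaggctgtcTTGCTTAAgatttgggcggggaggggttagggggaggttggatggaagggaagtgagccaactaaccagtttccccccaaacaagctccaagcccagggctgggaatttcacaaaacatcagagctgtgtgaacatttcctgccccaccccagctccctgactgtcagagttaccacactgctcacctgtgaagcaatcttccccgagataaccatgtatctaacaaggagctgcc
S100a11, plus strand, chr3:93520246-93520495: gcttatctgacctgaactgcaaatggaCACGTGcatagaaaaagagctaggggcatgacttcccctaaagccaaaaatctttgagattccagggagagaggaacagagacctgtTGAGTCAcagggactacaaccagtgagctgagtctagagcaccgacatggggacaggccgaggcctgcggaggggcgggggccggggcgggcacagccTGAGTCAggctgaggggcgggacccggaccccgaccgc

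The motifs were searched on both strands, and a match describes letters, not a bound site. S100a8 held the letters of PU.1, a factor of the myeloid lineage (GAGGAAG, on the minus strand 171 to 165 bases before the start), which 10.6% of all 32851 promoter windows of the same length held. It also held a TATA box (TATAAA, 30 to 25 bases before the start, held by 12.4% of all windows), as did S100a4 (31 to 26 bases). S100a9 held a match to the C/EBP pattern TTGCNNAA (236 to 229 bases before the start, 9.56% of all windows). S100a11 held the AP-1 pattern TGANTCA at 2 places, 136 to 130 and 38 to 32 bases before the start (6.75% of windows held it at least once). Its hypoxia response letters ACGTG occurred on both strands of the same 6 bases (223 to 218 bases before the start, 16.6% of windows). The NF-kB pattern (GGG, any 3 bases, TTCC, held by 4.65% of windows) matched none of the 7 sequences. S100a6, S100a13 and S100a1 matched none of the 6 motifs. The S100a13 sequence (chr3:90514185-90514434) lay mostly inside the gene span given above (chr3:90514233-90524581). Its lack of matches thus does not describe the 250 bases before that span.

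The libraries held 10457492 to 20706412 counts each. All 10 markers of Ly6C-high monocytes were above 3 counts in every library. Their summed level was 39988 to 44630 CPM (counts scaled to the library total) in healthy blood. It was 30059 to 33763 CPM in LLC blood and 16117 to 20676 CPM in LLC tumor. Lyz2 made up much of it, at 25713 to 29077, 15640 to 19003 and 6898 to 9308 CPM. In LLC tumor against LLC blood 7 of the 10 were called lower (31.7% of all genes were). Itgam and Fcgr1 were called higher (29.6% of all genes were). RNA of other cells was measured by marker lists and moved with the groups. The 6 fibroblast markers summed to 855 to 3697 CPM in LLC tumor, 5.84 to 16.4 CPM in healthy blood, 411 CPM in LLC blood 1 and 3.53 and 4.25 CPM in the other LLC blood libraries. T cell markers summed to 36.7 to 180.7 CPM in healthy blood, 3.39 to 5.07 CPM in LLC blood and 1.12 to 2.48 CPM in LLC tumor, and NK cell markers to 140.4 to 301.2, 21.0 to 35.02 and 0.864 to 2.13 CPM. The B cell sum was 162.9 CPM in healthy blood 2 and 1.72 to 24.0 CPM elsewhere. All 6 T cell and 5 NK cell markers tested were called lower when LLC blood was set against healthy blood (9.61% of all genes were). Endothelial markers summed to 50.5 to 69.6 CPM in LLC tumor and 11.3 to 19.0 CPM in blood. All 3 tested were called higher in LLC tumor than in LLC blood. Platelet markers summed to 67.9 to 111.4 CPM in LLC tumor and 2.68 to 14.7 CPM in blood. Nearly all of the platelet sum in LLC tumor was Ppbp, at 110.4, 91.8 and 66.0 CPM. Itga2b, the other platelet marker tested, was not called against LLC blood (log2 fold change -0.52). It was called lower in LLC tumor than in healthy blood (-1.60). LLC tumor 1 stood apart, with a scaling factor of 0.798 against 0.968 to 1.07 in the other 8 libraries. In bulk RNA, fewer cells of a type and less RNA per cell cannot be told apart. CPM were computed over all entries of the count table and depend on transcript length, so levels are compared between libraries and not between genes.

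Among the 8 genes, S100a11 alone was called higher in LLC blood than in healthy blood, and S100a6, S100a10 and S100a11 were called higher in LLC tumor than in LLC blood. S100a8 and S100a9 had higher means in LLC blood, differed widely between libraries of a group and were not called. In LLC blood against healthy blood, 1 of 8 members was called (edgeR quasi-likelihood test, Benjamini-Hochberg adjusted p under 0.05 over all genes), against 23.6% of the 12337 genes tested. It was higher, as were 14% of all genes. In LLC tumor against LLC blood, 3 of 8 were called, all higher, against 61.3% of all genes called and 29.6% called higher. In LLC tumor against healthy blood, 4 of 8 were called, all higher, against 66.5% called and 33.5% called higher. No member was called lower in any comparison. The shares called, in either direction, were below the background in these fits, while the shares called higher were below it in blood and above it in both tumor comparisons; 8 genes are too few to read more from them. With limma-voom and sample quality weights, 5 of 8 members were called in LLC blood against healthy blood beside 5884 genes in all (47.7%).

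The libraries of the 2 groups did not overlap in CPM for 3 members in LLC blood against healthy blood (51.4% of all genes), 3 in LLC tumor against LLC blood (68.3%) and 4 in LLC tumor against healthy blood (70.6%). The median log2 fold change of the 8 members was 0.26, 0.13 and 0.58 in the 3 comparisons, beside -0.0092, -0.034 and -0.0025 over all genes tested. The LLC blood libraries enter the first and second comparison, the LLC tumor libraries the second and the third, and the healthy blood libraries the first and the third.

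**Figure D1:**
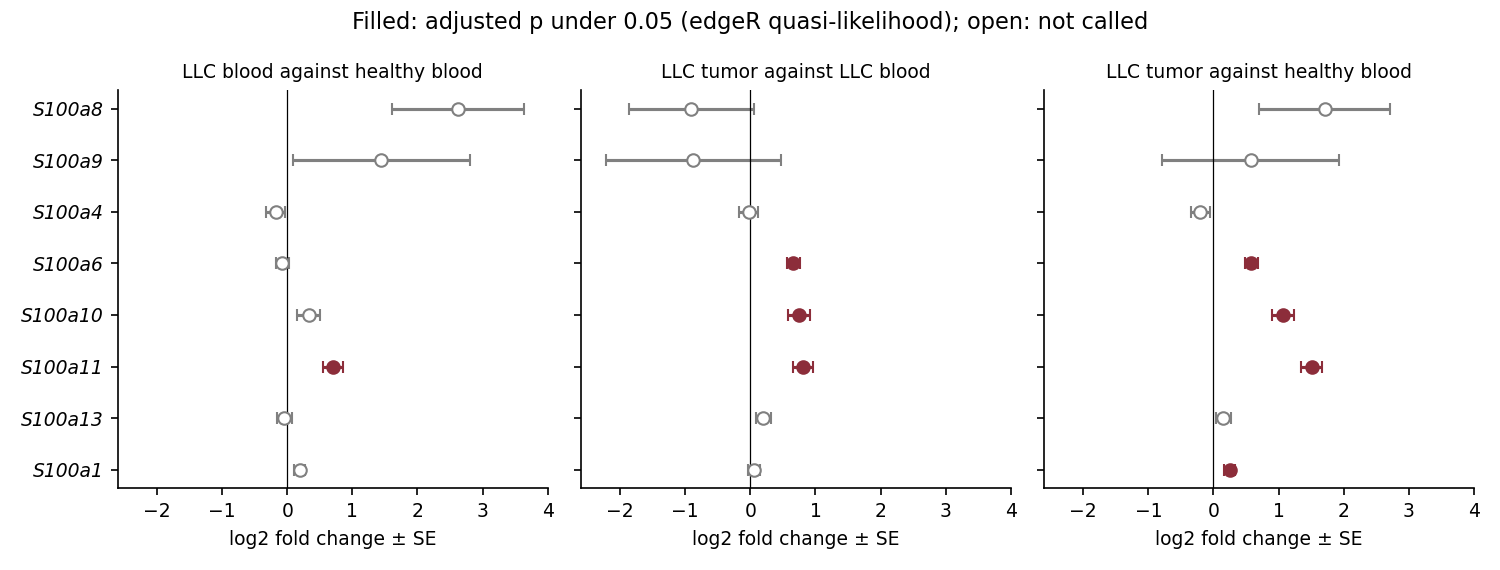
Log2 fold change (x axis) with its standard error for each of the 8 S100 genes in the 3 comparisons, with filled points for an adjusted p under 0.05 and open points for genes not called. S100a6, S100a10 and S100a11 are filled to the right of 0 in both tumor comparisons, while the wide error bars belong to S100a8 and S100a9.

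S100a8, the smaller subunit of calprotectin, was at 2.93, 61.3 and 4.66 CPM in healthy blood 1 to 3, from 41, 997 and 76 counts. It was at 49.9, 216.5 and 167.5 CPM in LLC blood and at 23.2, 111.7 and 74.9 CPM in LLC tumor. Healthy blood 2 lay above LLC blood 1 and LLC tumor 1, so the groups overlapped, while healthy blood 1 and 3 lay below every other library. The log2 fold change from healthy blood to LLC blood was 2.62 ± 1.02 SE (6.16-fold), which was not called (adjusted p 0.0942). From LLC blood to LLC tumor it was -0.91 ± 0.96 SE (adjusted p 0.432), and from healthy blood to LLC tumor 1.71 ± 1.00 SE (adjusted p 0.159).

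S100a9, the partner subunit, was at 0.929, 90.7 and 2.51 CPM in healthy blood, from 13, 1476 and 41 counts. In LLC blood it was at 15.1, 161.0 and 86.1 CPM, and in LLC tumor at 7.58, 87.6 and 36.3 CPM. Healthy blood 2 was near the highest LLC tumor library and above 2 of the 3 LLC blood libraries, so the groups overlapped. The log2 fold changes were 1.45 ± 1.35 SE in LLC blood against healthy blood (adjusted p 0.479), -0.88 ± 1.34 SE in LLC tumor against LLC blood (adjusted p 0.590) and 0.57 ± 1.36 SE in LLC tumor against healthy blood (adjusted p 0.728).

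These values moved with single libraries, most of all healthy blood 2. Without healthy blood 2, edgeR called S100a8 higher in LLC blood than in healthy blood (log2 fold change 5.15, adjusted p 0.00799) and in LLC tumor than in healthy blood (4.27, adjusted p 0.00247). S100a9 was then called as well, at 5.53 in LLC blood (adjusted p 0.0303) and 4.70 in LLC tumor (adjusted p 0.0150). Without LLC blood 2, the S100a9 change from healthy blood to LLC blood was 0.70 and that from LLC blood to LLC tumor -0.15. Without LLC tumor 2 it was -1.80 against LLC blood and -0.35 against healthy blood. The choice of fit mattered too: with all libraries kept, S100a8 was called higher in LLC blood on the 6 libraries compared alone (2.61, adjusted p 0.0499) and by limma-voom with sample quality weights (3.39, adjusted p 0.00735). Limma-voom with these weights also called it higher in LLC tumor than in healthy blood (2.52, adjusted p 0.0250).

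The spread within groups was itself a property of this pair. The SD of log2 CPM within healthy blood was 2.33 for S100a8 and 3.38 for S100a9, beside a median of 0.11 over all tested genes, and 99.8% and 99.97% of genes had a smaller one. In LLC blood the SDs were 1.12 and 1.76 (97.8% and 99.1% of genes smaller), and in LLC tumor 1.00 and 1.61 (94.5% and 99.5% smaller). S100a6 and S100a1, at the other end, had SDs of 0.027 and 0.022 in healthy blood. The log2 ratio of S100a9 to S100a8 counts was -1.66, 0.57 and -0.89 in healthy blood, -1.72, -0.43 and -0.96 in LLC blood, while LLC tumor had -1.61, -0.35 and -1.05. In every group library 1 was the lowest and library 2 the highest for both genes. In each group, the library with the most S100a8 also had the highest ratio and the library with the least the lowest. The mean ratio did not differ between groups beyond the spread of the libraries (exact two-sided permutation p 0.6, 0.9 and 0.7, or 0.84, 0.90 and 0.84 adjusted over 6 such tests of library values, where the smallest possible p is 0.1).

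**Figure D2:**
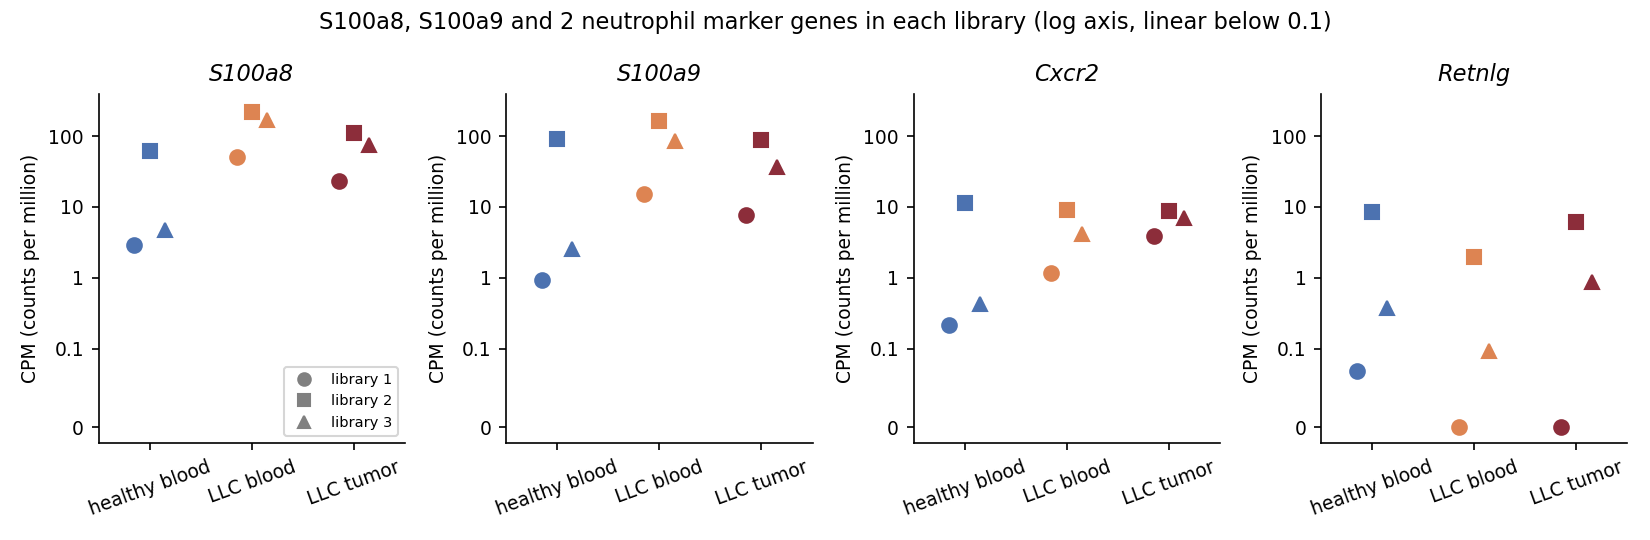
CPM of S100a8, S100a9 and the neutrophil markers Cxcr2 and Retnlg (y axes, logarithmic above 0.1 and linear below) in each library, by group, with a symbol for each library number. Healthy blood 2 stands far above healthy blood 1 and 3 for all 4 genes, with S100a8 at 61.3 CPM against 2.93 and 4.66 CPM.

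Neutrophils hold much S100a8 and S100a9 RNA and had been gated out by Ly6G. Its gene, Ly6g, was among 14 neutrophil markers chosen without S100a8 and S100a9, but was absent from the count table. The other 13 were in the table, and between 2 and 8 of them were at 3 counts or fewer in a library. Their sum was 607.5 to 692.0 CPM in healthy blood, 625.5 to 731.0 CPM in LLC blood and 280.8 to 401.0 CPM in LLC tumor. Most of it came from Cd177, Mmp8 and Padi4, which in healthy blood did not show the differences between libraries that S100a8 did: Cd177 was at 409.2, 343.5 and 346.9 CPM, Mmp8 at 171.3, 180.2 and 167.0 CPM and Padi4 at 104.3, 92.9 and 87.8 CPM. In LLC blood Mmp8 was at 230.7, 313.4 and 302.6 CPM, and in LLC tumor at 135.1, 173.7 and 148.6 CPM, in the library order of S100a8. Padi4 had that order in LLC tumor and the reverse in LLC blood, and Cd177 had the reverse in every group. Cxcr2 and Retnlg followed the library order of the pair within each group. Between healthy blood and LLC blood neither was called. Their log2 fold changes were 0.23 (adjusted p 0.907) and -2.16 (adjusted p 0.410), beside 2.62 for S100a8. Of the 11 neutrophil markers tested there, 3 were called higher (14% of all genes were) and 2 lower (9.61%). Those higher were Ltf (4.17, adjusted p 0.0413), Lcn2 (3.46, adjusted p 0.00123) and Mmp8 (0.68, adjusted p 0.00317). Those lower were Cd177 (-0.74, adjusted p 0.0227) and Padi4 (-0.37, adjusted p 0.0128). Cxcr2, a chemokine receptor of neutrophils, was at 0.214, 11.5 and 0.430 CPM in healthy blood, 1.15, 9.13 and 4.20 CPM in LLC blood and 3.88, 8.78 and 6.91 CPM in LLC tumor. Retnlg was at 0.0715, 8.54 and 0.368 CPM in healthy blood, listed at 0 in LLC blood 1, at 1.94 and 0.0966 CPM in LLC blood 2 and 3, listed at 0 in LLC tumor 1 and at 6.20 and 0.864 CPM in LLC tumor 2 and 3. In every group both genes were highest in the library with the highest S100a8 level and lowest in the library with the lowest one. Their part in the S100a8 and S100a9 levels was not tested.

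Granule protein genes that neutrophil precursors express were also measured. Ngp was at 0.0715, 3.38 and 0.429 CPM in healthy blood and at 0.287, 23.5 and 9.08 CPM in LLC blood, and listed at 0, at 1.95 and at 0 CPM in LLC tumor. All 4 granulocyte precursor markers (Mpo, Elane, Prtn3 and Ctsg) were called higher in LLC blood than in healthy blood (14% of all genes were), and all 4 were called lower in LLC tumor than in LLC blood (31.7% of all genes were). Their sum was 9.36, 14.6 and 9.38 CPM in healthy blood, 37.0, 73.6 and 57.1 CPM in LLC blood and 5.69, 14.2 and 10.9 CPM in LLC tumor. In each group library 1 had the smallest sum and library 2 the largest, as for S100a8 and S100a9.

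Over the 9 libraries S100a8 and S100a9 lay at a root mean square distance of 0.69 from each other in centred log2 CPM, the smallest distance of either to any gene compared. Outside the 8 members, only genes that averaged 20 CPM or more were compared, here and for the other members below. Cxcr2, Retnlg and Ngp averaged less. Of the genes compared, the closest to S100a8 were Lcn2, an iron-siderophore binding protein also among the neutrophil markers, and Lrg1. Their distance to S100a8 was 0.90 and 1.03, beside a median distance of 2.06 over the genes that averaged 20 CPM or more. Lcn2 and Lrg1 were also the closest to S100a9 outside the members, at 1.50 and 1.51. Lcn2 was at 4.86, 9.52 and 3.25 CPM in healthy blood, 37.7, 90.2 and 70.8 CPM in LLC blood and 11.7, 35.1 and 22.2 CPM in LLC tumor. Unlike S100a8, Lcn2 did not overlap between healthy blood and LLC blood and was called higher in LLC blood (log2 fold change 3.46 ± 0.47 SE, adjusted p 0.00123).

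S100a4, which binds the heavy chain of non-muscle myosin and is known for its link to cell motility and metastasis, was not called in any comparison. It was at 1221, 1240 and 1369 CPM in healthy blood, 1267, 1049 and 1133 CPM in LLC blood and 1052, 905.7 and 961.7 CPM in LLC tumor. The CPM of all LLC tumor libraries lay below those of healthy blood. After the TMM scaling used in the test, LLC tumor 1 was at 1319 CPM and healthy blood at 1182 to 1326 CPM, which overlapped, and the log2 fold change was -0.20 ± 0.15 SE (adjusted p 0.257). This change was called under 4 of 17 alternative fits. With library totals only, which moved the median of all genes to -0.17, it was -0.39 (adjusted p 0.00380). It was also called with upper-quartile factors (-0.31, adjusted p 0.0481), by limma-voom with sample quality weights (-0.33, adjusted p 0.00581) and without LLC tumor 1 (-0.40, adjusted p 0.00544). In LLC blood against healthy blood the change was -0.18 ± 0.15 SE (adjusted p 0.429), which limma-voom with these weights called (-0.22, adjusted p 0.0447). In LLC tumor against LLC blood it was -0.024 ± 0.15 SE (adjusted p 0.898), turned to 0.034 with DESeq2 and was called with library totals only (-0.24, adjusted p 0.0420). The gene outside the members closest to S100a4 over the 9 libraries was Chmp2b, at a distance of 0.051 beside a median of 0.33.

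S100a6, or calcyclin, a cytoplasmic S100 protein that binds the calcyclin-binding protein Cacybp, rose in the tumor. It was at 750.1, 757.5 and 777.0 CPM in healthy blood and 784.7, 704.6 and 716.4 CPM in LLC blood, which overlapped, and at 982.1, 1015 and 1029 CPM in LLC tumor, above all blood libraries. The log2 fold change in LLC tumor was 0.66 ± 0.10 SE against LLC blood (1.58-fold, adjusted p 0.000355) and 0.58 ± 0.10 SE against healthy blood (1.50-fold, adjusted p 0.000681). Between LLC blood and healthy blood it was -0.077 ± 0.10 SE (adjusted p 0.621). Its closest gene in pattern outside the members was Gmeb2, at a distance of 0.044.

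S100a10, which lacks calcium binding and holds annexin A2 at the membrane in a complex that promotes plasminogen activation, was higher in the tumor. It was at 250.5, 255.3 and 275.4 CPM in healthy blood, 313.7, 339.7 and 344.5 CPM in LLC blood and 563.3, 423.2 and 444.6 CPM in LLC tumor. These ranges did not overlap between any groups. The step from healthy blood to LLC blood had a log2 fold change of 0.33 ± 0.17 SE and was not called (adjusted p 0.200), although the 6 libraries compared alone gave a call (0.32, adjusted p 0.00426), as did library totals only (0.35, adjusted p 0.0402), limma-voom with sample quality weights (0.35, adjusted p 0.00328) and the fit without LLC tumor 1 (0.28, adjusted p 0.00646). S100a10 rose by 0.75 ± 0.17 SE from LLC blood to LLC tumor (1.68-fold, adjusted p 0.00415) and by 1.07 ± 0.17 SE from healthy blood to LLC tumor (2.10-fold, adjusted p 0.000450).

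S100a11, a partner of annexin A1 with roles at the membrane and in growth control, was the member called in all 3 comparisons. It was at 349.8, 331.6 and 285.3 CPM in healthy blood, 491.0, 554.7 and 558.7 CPM in LLC blood and 877.0, 709.9 and 825.9 CPM in LLC tumor, with no overlap between any groups. It rose by 0.70 ± 0.16 SE on the log2 scale from healthy blood to LLC blood (1.63-fold, adjusted p 0.0114), a call lost without healthy blood 3 (0.62, adjusted p 0.0572). From LLC blood to LLC tumor it rose by 0.81 ± 0.16 SE (1.75-fold, adjusted p 0.00155), and from healthy blood to LLC tumor by 1.51 ± 0.16 SE (2.85-fold, adjusted p 3.03e-05). Over the 9 libraries its closest gene outside the members was Ass1, at a distance of 0.10 beside a median of 0.70, and that of S100a10 was Tollip, at 0.072 beside 0.56.

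**Figure D3:**
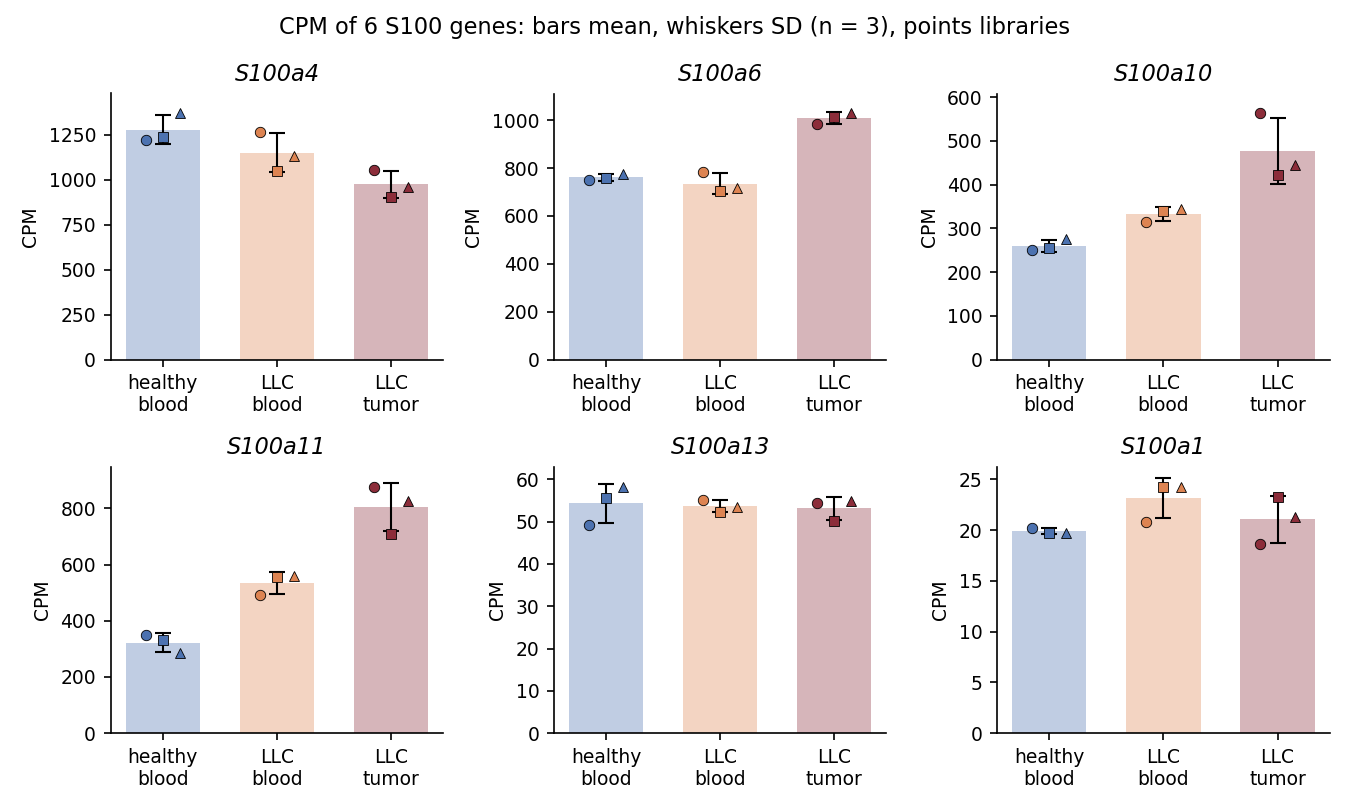
CPM (y axes, from 0) of S100a4, S100a6, S100a10, S100a11, S100a13 and S100a1 in the 3 groups, with bars for the mean, whiskers for the SD (n = 3) and a symbol for each library. S100a10 and S100a11 step up from healthy blood to LLC blood to LLC tumor without overlap, and S100a13 stays between 49.2 and 58.2 CPM in all 9 libraries.

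Fibroblasts also express S100a6, S100a10 and S100a11, and fibroblast marker RNA was high in the tumor libraries. The 6 fibroblast markers, led by Col3a1 (713.3, 2801 and 3099 CPM in LLC tumor), summed to 854.7 CPM in LLC tumor 1, 3299 CPM in LLC tumor 2 and 3697 CPM in LLC tumor 3, and none of the 6 was at 3 counts or fewer there. LLC tumor 1, with the smallest fibroblast sum of the tumor group, had its highest S100a10 and S100a11 levels, 563.3 and 877.0 CPM, or 706.1 and 1099 CPM after TMM scaling. Its S100a6 level was the lowest of the group in CPM (982.1) and the highest after TMM scaling (1231, beside 1016 and 1064). LLC blood 1, with a fibroblast sum of 411.5 CPM led by Col1a1 at 212.2 CPM, had the highest S100a6 level of its group (784.7 CPM) and the lowest S100a10 and S100a11 levels (313.7 and 491.0 CPM). Without LLC tumor 1, 2 or 3 in turn, S100a6, S100a10 and S100a11 were called higher in LLC tumor than in either blood group each time. The 5 epithelial or LLC cell markers summed to 63.4 to 102.0 CPM in LLC tumor, 3.87 to 6.27 CPM in LLC blood and 8.15 to 9.79 CPM in healthy blood. Cdh1, Krt18 and Krt8 rose in LLC tumor against LLC blood (log2 fold changes of 4.91, 7.28 and 6.01), Krt7 fell (-1.86), and Epcam was at 2 counts or fewer in every library. The part of fibroblast, tumor cell and other cells' RNA in the S100 levels was not tested.

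**Figure D4:**
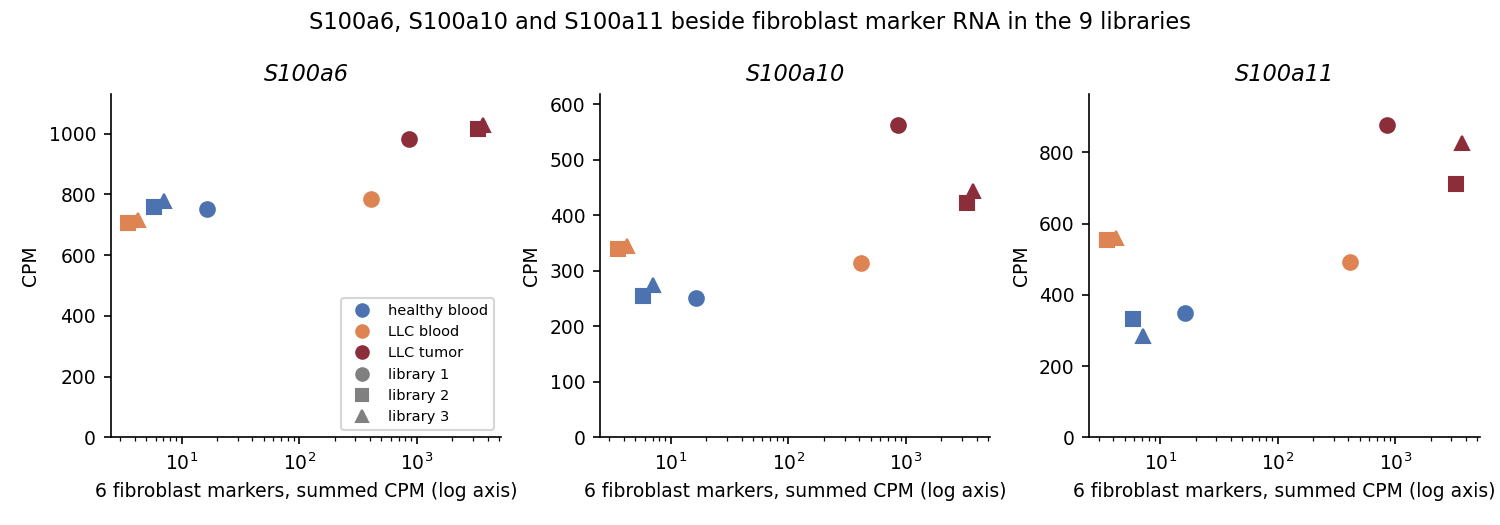
CPM of S100a6, S100a10 and S100a11 (y axes, from 0) against the summed CPM of 6 fibroblast markers (x axis, logarithmic) in the 9 libraries, colored by group. LLC tumor 1 has the smallest fibroblast sum of the tumor libraries, 854.7 CPM, and the highest S100a10 and S100a11 levels.

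S100a13, which takes part in the release of FGF1 and interleukin-1 alpha outside the secretory pathway, was not called in any comparison. Its level was 49.2, 55.5 and 58.2 CPM in healthy blood, 55.2, 52.2 and 53.6 CPM in LLC blood and 54.4, 50.1 and 55.0 CPM in LLC tumor, so the groups overlapped. The log2 fold changes were -0.045 ± 0.11 SE in LLC blood against healthy blood (adjusted p 0.813), 0.19 ± 0.12 SE in LLC tumor against LLC blood (adjusted p 0.169) and 0.15 ± 0.11 SE in LLC tumor against healthy blood (adjusted p 0.275). Under library totals only the tumor changes were -0.013 and -0.032. Its tumor change against LLC blood was called without LLC tumor 2 (0.29, adjusted p 0.0432).

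S100a1, best known from heart muscle, where it binds calcium-handling proteins, was at 20.2, 19.7 and 19.7 CPM in healthy blood, 20.8, 24.3 and 24.2 CPM in LLC blood and 18.6, 23.2 and 21.3 CPM in LLC tumor. Its change in LLC tumor against healthy blood was called (log2 fold change 0.25 ± 0.088 SE, 1.19-fold, adjusted p 0.0301), while the groups overlapped in CPM and did not after TMM scaling (22.1 to 23.3 CPM in LLC tumor, 19.0 to 19.6 CPM in healthy blood). That call was lost in 12 of 17 alternative fits, where the change was between 0.083 with library totals only and 0.30. In LLC blood against healthy blood the change was 0.19 ± 0.087 SE (adjusted p 0.140; 0.24 and 0.0126 by limma-voom with sample quality weights), without overlap in CPM, and in LLC tumor against LLC blood 0.057 ± 0.088 SE (adjusted p 0.595).

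Together the 8 genes took 0.264% to 0.281% of the counts in healthy blood, 0.300% to 0.310% in LLC blood and 0.333% to 0.358% in LLC tumor. These ranges did not overlap, and each pair of groups reached the smallest p that 3 against 3 libraries allow (exact two-sided permutation p 0.1, adjusted over the 6 tests 0.2). Of 9 further S100 genes in the table, 8 were at 6 counts or fewer in every library. The other one, S100a16, was listed at 0 in healthy blood and at 2, 0 and 0 counts in LLC blood, and was at 1.99, 5.05 and 7.26 CPM in LLC tumor. S100a16 was thus at least 24.5-fold higher in LLC tumor than in healthy blood (adjusted p 0.000330) and at least 22.4-fold higher than in LLC blood (adjusted p 0.000602), against a floor of 3 counts per library. Its order among the tumor libraries, lowest in LLC tumor 1, was that of the fibroblast markers' sum.

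Of 10 genes for receptors of S100 proteins and their signalling, 2 were called higher and 2 lower when LLC blood was set against healthy blood, where 14% of all genes were called higher and 9.61% lower. When LLC tumor was set against LLC blood, 7 were called higher and 2 lower (29.6% of all genes higher and 31.7% lower), and against healthy blood 4 higher and 3 lower (33.5% of all genes higher and 33% lower). Their median log2 fold changes were -0.059, 1.51 and 0.20 in the 3 comparisons. Tlr4, the receptor of calprotectin that signals through Myd88, rose from 28.8 ± 4.20 CPM (SD, n = 3) in healthy blood to 53.9 ± 6.73 CPM in LLC blood (log2 fold change 0.88 ± 0.13 SE, adjusted p 0.00208) and 133.4 ± 12.2 CPM in LLC tumor (1.50 ± 0.13 SE against LLC blood, adjusted p 1.19e-05). Cd14, the co-receptor of Tlr4, rose from 49.4 ± 2.26 CPM in LLC blood to 1611 ± 347.2 CPM in LLC tumor (5.26 ± 0.25 SE, adjusted p 3.92e-07).

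Bsg, which encodes the S100A9 receptor basigin, was at 143.1 ± 2.39 CPM in healthy blood, 146.8 ± 4.25 CPM in LLC blood and 443.7 ± 59.7 CPM in LLC tumor (1.82 ± 0.16 SE against LLC blood, adjusted p 1.15e-05). Ager, the gene of RAGE, was low throughout, at 5.07 ± 0.887, 5.18 ± 0.188 and 3.00 ± 0.956 CPM. Its fall in LLC tumor against LLC blood (-0.61 ± 0.23 SE, adjusted p 0.0423) was lost in 12 of 17 alternative fits. Cd36, a scavenger receptor, fell from 42.7 ± 5.35 CPM in healthy blood to 7.55 ± 1.53 CPM in LLC blood (-2.54 ± 0.28 SE, adjusted p 0.000413) and was at 40.5 ± 12.1 CPM in LLC tumor (2.66 ± 0.28 SE against LLC blood, adjusted p 3.63e-05).

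Of 15 tested genes for intracellular partners, 4 were called higher and 0 lower in LLC blood against healthy blood (14% and 9.61% of all genes). Both tumor comparisons called 8 higher and 3 lower (29.6% and 31.7% of all genes against LLC blood, 33.5% and 33% against healthy blood). The medians were 0.077, 0.32 and 0.32. Anxa2, the partner of S100a10, was at 1078 ± 11.9, 1443 ± 53.2 and 2183 ± 242.2 CPM over the 3 groups, from healthy blood to the tumor. The first step was not called (0.39 ± 0.15 SE, adjusted p 0.0968, although 7 of 17 alternative fits called it) and the second was (0.82 ± 0.16 SE, adjusted p 0.00137), as for S100a10 itself. Anxa1, the partner of S100a11, went up and then down, with 502.4 ± 34.6, 742.1 ± 52.0 and 435.3 ± 93.7 CPM (0.54 ± 0.11 SE, adjusted p 0.00669, and -0.59 ± 0.11 SE, adjusted p 0.000996).

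Myh9, the myosin bound by S100a4, rose at both steps, from 931.5 ± 18.7 to 1339 ± 77.5 CPM (0.50 ± 0.10 SE, adjusted p 0.00731) and to 1512 ± 62.7 CPM (0.38 ± 0.10 SE, adjusted p 0.00844). Cacybp, the partner of S100a6, was not called in any comparison (60.0 ± 9.15, 51.8 ± 3.61 and 44.7 ± 7.44 CPM). Ahnak, a large scaffold of the complex of S100a10 and annexin A2, rose from 1965 ± 166.1 to 3012 ± 216.1 CPM in LLC blood (0.59 ± 0.14 SE, adjusted p 0.0176), a call lost in 4 of 17 alternative fits. Il1a, a cargo of S100a13, had at most 4 counts in any LLC blood library and was at 26.3 to 94.4 CPM in LLC tumor (adjusted p 3.25e-05). Mdm2, the ubiquitin ligase of p53 that S100 proteins can bind, rose from 88.7 ± 4.80 CPM in LLC blood to 198.4 ± 19.0 CPM in LLC tumor (1.38 ± 0.14 SE, adjusted p 2.78e-05), and Anxa6, a further annexin, fell from 424.0 ± 24.3 to 178.3 ± 8.58 CPM (-1.05 ± 0.087 SE, adjusted p 8.45e-06).

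Of 9 tested genes for factors known to act at S100a8 and S100a9, 1 was called higher and 3 lower in LLC blood against healthy blood, beside 14% and 9.61% of all genes. In each tumor comparison 3 were called higher and 4 lower, beside 29.6% and 31.7% of all genes against LLC blood and 33.5% and 33% against healthy blood. The medians were -0.26, -0.34 and -0.069. In LLC blood the C/EBP factor genes fell: Cebpa from 248.5 ± 77.5 to 120.8 ± 7.23 CPM (-1.07 ± 0.28 SE, adjusted p 0.0233), Cebpb from 350.5 ± 25.6 to 249.2 ± 10.0 CPM (-0.52 ± 0.10 SE, adjusted p 0.00612) and Cebpd from 89.1 ± 5.23 to 75.7 ± 0.0774 CPM (-0.26 ± 0.076 SE, adjusted p 0.0363). The calls of Cebpa and Cebpd were lost in 4 and 8 of 17 alternative fits. Stat3 rose from 393.3 ± 26.1 to 505.6 ± 29.2 CPM (0.34 ± 0.088 SE, adjusted p 0.0231), a call lost in 5 of the 17. From LLC blood to LLC tumor Cebpb rose to 604.2 ± 26.1 CPM (1.48 ± 0.10 SE, adjusted p 2.62e-06) and Cebpd fell to 26.5 ± 1.62 CPM (-1.31 ± 0.080 SE, adjusted p 1.27e-06). Hif1a, the oxygen-regulated factor that binds the letters ACGTG, rose from 151.2 ± 13.05 to 859.5 ± 39.2 CPM (2.72 ± 0.15 SE, adjusted p 6.46e-07).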

How the data were processed

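RNA was extracted with TRIzol and made into TruSeq libraries, per the labels' protocols. The authors deposited expected counts per gene symbol, not normalized, and a table of CPM values for 10693 of the genes; the submitters' processing notes name Trim Galore 0.6.7, cutadapt 3.4, STAR 2.6.1d, Salmon 1.9.0, edgeR and the build mm10, and the annotation is not given in the sources used here. The deposited CPM table served for one alternative denominator. Blood columns are headed BM in the tables and were taken as blood from the sample titles. The 22 samples of other assays were not analysed here.

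Counts were rounded and fitted with edgeR 4.0.16 (R 4.3.3; quasi-likelihood, TMM, filterByExpr, group as the only term) on all 9 libraries, which tested 12337 genes. P-values were adjusted by Benjamini-Hochberg over these genes in each comparison and called under 0.05. An SE is the absolute log2 fold change divided by the square root of its F statistic. DESeq2 1.42.0, limma 3.58.1 (voom with quality weights), other scalings, no filter, fewer libraries and a replicate block were alternatives. The script was tested on simulated data, with 200 genes changed 2-fold in LLC blood against healthy blood at a dispersion of 0.05. It recovered 53% of them and made 6 false calls. A gene that was not called is thus not shown to be unchanged. Libraries of a group differed by more than sampling noise.

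The members and lists were chosen with earlier results of these data known. The text names all members, 7 fixed receptors and partners, and of each list at most the 4 called genes with the largest change and a mean of at least 20 CPM. S100a16, S100a11's promoter, Cd177, Mmp8, Padi4, Cxcr2, Retnlg, Ngp, Ltf, Lyz2, Itgam, Fcgr1, Ppbp, Itga2b and the fibroblast and epithelial markers named were singled out after their values were seen.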

Additional observations from a re-analysis of the deposited data

How the results depend on the processing

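The cause of a change between settings was not tested, except that fewer libraries or weights change the shared spread by construction. S100a6, S100a10 and S100a11 kept their tumor calls in all 17 alternative fits of both tumor comparisons. In LLC blood against healthy blood the 1 member called became 2 with library totals only (22.6% of all genes) and 3 with the 6 libraries compared (42.3%). It became 5 with limma-voom with sample quality weights (47.7%). With one library left out it was 0 (without healthy blood 3, 13.4% of all genes) to 3 (without healthy blood 2, 14.8%). The 2917 genes called there became 4889 with the 6 libraries compared, 5884 with limma-voom, and ranged from 1494 when LLC blood 2 was left out to 5064 when LLC tumor 1 was. Of them 59.4% were higher, or 46.3% with upper-quartile factors and 43.1% without LLC tumor 1; of those in LLC tumor against LLC blood 48.3% were, or 36.3% with library totals only, which moved the median of all genes to -0.23.

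Same-numbered libraries did not deviate together throughout (correlations of -0.14 to 0.30 over the 3 comparisons), so the labels' numbers are not known to pair mice. In 5 of 9 cases a library correlated best with its own number. With the replicate block, LLC blood against healthy blood called 4 members and 4820 genes (41.7% of all) in the 6 libraries, or 2 members (22.6% of all genes) in the 9. LLC tumor against LLC blood called 5 members in the 6 libraries (55.4% of all genes). S100a8 was among them, at 3.23 (adjusted p 0.00406) and 3.25 (0.0104) in LLC blood and -0.84 (0.00164) from LLC blood to LLC tumor, and at 2.63 (0.0143) and 2.35 (0.0113) in LLC tumor against healthy blood. S100a9 was called in the 6 libraries at 2.40 (0.0315) and -0.82 (0.00438).

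The list counts in LLC blood against healthy blood, 4 each, became 8, 7 and 8 for partners and 7, 7 and 7 for factors with the 6 libraries, the replicate block there and limma-voom. Of all genes, 42.3%, 41.7% and 47.7% were called in these fits. With one library left out the list counts were 2 to 6 for receptors, 2 to 7 for partners and 1 to 7 for factors, beside 11.7% to 39.4% of all genes. These settings for lists were chosen after seeing the data.

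Changes that were not called turned sign as follows. In LLC tumor against LLC blood, S100a4 was 0.034 with DESeq2, 0.0034 with the 6 libraries and -0.17 to 0.085 with one library left out. S100a1 was -0.14 with library totals only, -0.0065 with no filter, -0.014 with limma-voom and -0.029 to 0.088 with one left out. Cacybp was 0.036 with DESeq2, 0.011 with the 6 libraries, 0.0076 with the replicate block there and -0.097 to 0.048 with one left out. S100a13 was -0.013, and -0.032 against healthy blood, with library totals only. In LLC blood against healthy blood S100a13 was -0.11 to 0.0088 with one left out. Ager was -0.0072 with DESeq2, -0.047 with upper-quartile factors, -0.0023 with the 6 libraries and -0.17 to 0.14 with one left out. Bsg was -0.0035 with DESeq2, -0.042 with upper-quartile factors and -0.054 to 0.033 with one left out. In LLC tumor against healthy blood, with one library left out, S100a9 was -0.35 to 4.70 and Anxa1 -0.12 to 0.0031. The difference in the log2 ratio of S100a9 to S100a8 was -0.88 to 0.24, -0.31 to 0.34 and -0.84 to 0.27 in the 3 comparisons with one library left out.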
